A study of Mus musculus with 8 samples.

Results

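A set of 1172 regions of open chromatin carried a peak in the cortex of sham-operated mice and none after bilateral common carotid artery stenosis (BCAS). They were chosen by the presence of peaks alone. The peaks of all 8 deposited lists on 21 chromosomes (1 to 19, X and Y) were merged where they overlapped by 1 bp or more, which gave 197916 regions, and a region was kept when at least 3 of the 4 sham libraries and none of the 4 BCAS libraries had a peak in it. The 1172 members are 0.592% of all regions, 187 of them with a peak in all 4 sham libraries and 985 in exactly 3. They are called lost regions here. The name stands for the absence of a called peak and not for a measured loss of reads, because the lists hold no read counts.

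The 8 ATAC-seq libraries came from male C57BL/6 mice aged 14 weeks, 4 given sham surgery, in which both carotid arteries were exposed and no coil was placed, and 4 given BCAS, in which a wire microcoil was wound around each common carotid artery, the narrower one on the right. The labels name no other allele or agent. The labels give the right cerebral cortex as the tissue, while the quality sheet of the study describes cortex taken from the whole brain after removal of the cerebellum and olfactory bulb, so both hemispheres may be present. Nuclei of all cortical cell types were processed together. A region that is open in fewer cells and a region that is less open in each cell can therefore not be told apart.

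ATAC-seq uses a transposase that inserts sequencing adapters where DNA is free of nucleosomes, so peaks mark promoters and distal regulatory elements such as enhancers. Promoters of active genes are open in many cell types, whereas enhancers within introns and between genes are often open in one cell type or one activity state. In cortical neurons, enhancers are bound by lineage factors such as NEUROD and MEF2 proteins and by AP-1, the dimers of FOS and JUN proteins whose genes are induced by neuronal firing. In microglia, the resident macrophages of the brain, PU.1 (encoded by Spi1) holds many enhancers open.

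The libraries differed in ways that bear on every count below. The sham lists held 107391, 132715, 144988 and 112260 peaks, and the BCAS lists 160720, 127979, 123331 and 119565, so BCAS 1 had the longest list. The peak names carry library numbers, which run from 51 to 54 in the sham libraries and go on with 55 in BCAS 1, while BCAS 2 to 4 are numbered 59, 60 and 61. The labels do not say what these numbers mark. For BCAS 2 to 4 the later numbers and the surgery cannot be told apart. Results that rest on BCAS 1 are given with and without it. Promoters of cortical markers were open in both groups, with 16 to 18 of 18 excitatory neuron genes holding a peak within 1 kb of a start site in the sham libraries and 16 to 18 in the BCAS libraries. Microglial promoters differed between the groups, with 14 to 16 of 20 in the sham and 19 to 20 in the BCAS libraries, and endothelial promoters ran from 5 to 10 of 14 and from 9 to 12. Their part in the lost regions was not tested.

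The sequences below, which reach 100 bp to either side of the summit of the strongest sham peak, are shown as examples of lost regions (mm10, GRCm38, plus strand, letters from the RefSeq copy of that assembly). The first 2 are the strongest members by the rule given further on, and the last 2 are the strong members that hold the AP-1 letters TGACTCA, which are set in capitals because AP-1 was, of the 23 motifs searched, the one whose share stood furthest above that of all regions.
Fhl2 intron, chr1:43142095-43142295: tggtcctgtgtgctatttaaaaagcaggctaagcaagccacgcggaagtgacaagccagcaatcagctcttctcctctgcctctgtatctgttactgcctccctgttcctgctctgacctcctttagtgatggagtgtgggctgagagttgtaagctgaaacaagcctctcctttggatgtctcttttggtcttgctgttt
near Mettl21a, chr1:64621161-64621361: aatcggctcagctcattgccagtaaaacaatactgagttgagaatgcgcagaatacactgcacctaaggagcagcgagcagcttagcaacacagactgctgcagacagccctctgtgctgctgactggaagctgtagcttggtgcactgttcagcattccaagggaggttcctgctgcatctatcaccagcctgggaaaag
near B4galnt1, chr10:127160217-127160417: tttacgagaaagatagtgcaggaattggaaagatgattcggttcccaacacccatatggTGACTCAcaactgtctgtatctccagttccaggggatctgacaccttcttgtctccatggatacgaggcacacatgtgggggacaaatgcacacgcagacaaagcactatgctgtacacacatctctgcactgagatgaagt
Zbtb16 intron, chr9:48816304-48816504: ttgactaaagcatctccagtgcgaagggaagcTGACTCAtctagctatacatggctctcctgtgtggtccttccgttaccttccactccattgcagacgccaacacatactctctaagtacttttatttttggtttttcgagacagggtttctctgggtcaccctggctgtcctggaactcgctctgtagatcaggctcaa

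The lost regions were fewer than their mirror image. The same rule with the groups exchanged gave 6495 regions (3.28% of all), of which 3206 had a peak in all 4 BCAS libraries. The counts by number of libraries fell off along the sham axis, from 15560 regions with a peak in 1 sham library alone to 3694 in 2, 985 in 3 and 187 in 4. Along the BCAS axis they levelled out, from 20413 in 1 to 6431 in 2, 3289 in 3 and 3206 in 4. Regions open in all 8 libraries numbered 71712. Just outside the rule stood the 3694 regions with a peak in 2 sham libraries and no BCAS library, with a median length of 283 bp, and the 2977 and 1169 regions that had a peak in 3 or 4 sham libraries and in 1 BCAS library, with median lengths of 343 and 377 bp.

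**Figure D1:**
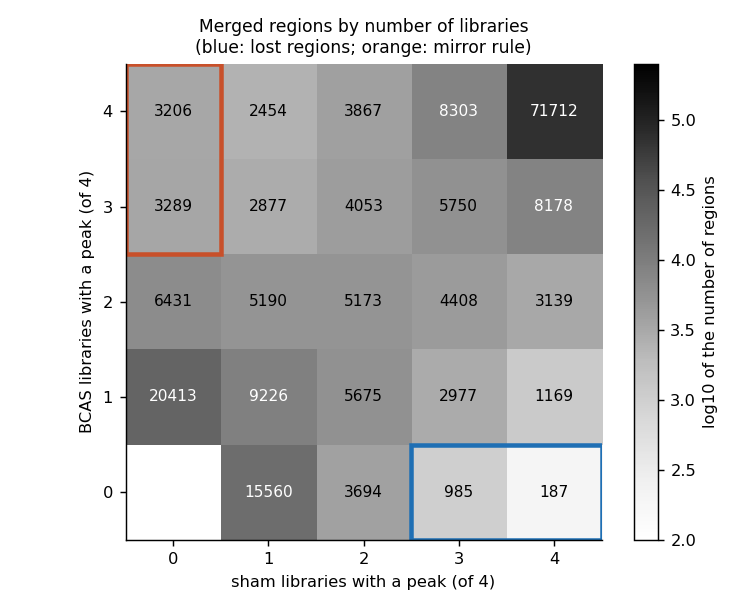
Number of merged regions by how many of the 4 sham libraries (horizontal axis) and of the 4 BCAS libraries (vertical axis) had a peak, with the shade giving the log10 of the count. The blue frame holds the 985 and 187 lost regions and the orange frame the 3289 and 3206 regions of the mirror rule.

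Library BCAS 1 kept most near misses out of the set. Of the 4146 regions with a peak in 3 or 4 sham libraries and in 1 BCAS library, 3076 (74.2%) had that peak in BCAS 1, against 12.3% in BCAS 2, 6.49% in BCAS 3 and 6.97% in BCAS 4. When BCAS 1 was left out of the rule altogether, the lost regions rose in number from 1172 to 4257, whereas leaving out BCAS 2, 3 or 4 gave 1687, 1444 and 1463. With BCAS 1 and 1 sham library left out and all 3 libraries required on either side, 1313 to 2465 regions were lost and 3485 to 4441 gained, the gained being more in each of the 4 cases. With lists cut to equal length, at the strongest peaks of each library, 2508 lost and 5263 gained regions were found.

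Among the sham libraries, sham 3, the one with the most peaks, had a peak in 1122 of the lost regions (95.7%). Sham 2 had one in 1021 (87.1%), sham 1 in 831 (70.9%) and sham 4 in 729 (62.2%). Of the 985 members with 3 sham libraries, 443 lacked a peak in sham 4, 341 in sham 1, 151 in sham 2 and 50 in sham 3. The libraries with the shortest lists, sham 1 and sham 4, were thus the ones most often without a peak.

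The lost regions were short, with weak peaks. Their median length was 320 bp (quartiles 281 and 384), and together they covered 406437 bp. Strength was read as the percentile of a peak within its own library by −log10 q, where 0 is the weakest and 100 the strongest peak. The median percentile of the lost regions was 16.7 in sham 1, 19.8 in sham 2, 23.6 in sham 3 and 15.4 in sham 4, and their median fold enrichment over the local background was 4.62, 4.53, 4.43 and 4.15. The upper quartile of the percentile was 26.9, 29.1, 36.3 and 25.5, so the peaks lay mostly in the weak end of each list. By the best percentile in any library the median member stood at 31.4 and the strongest at 67.9, so that no lost region reached a percentile of 90.

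Weak peaks were not particular to the lost regions. Regions with a peak in 3 or 4 of the 8 libraries and in at least 1 of each group, 21892 in number, had median percentiles of 14.2, 19.8, 20.9 and 16 in sham 1 to 4. The longest lists, BCAS 1 and sham 3, gave 17477 and 15657 peaks to this set, against 5153 to 12295 from each other library. It is therefore not matched to the lost regions library by library. The gained regions were stronger in the BCAS libraries, at 39.9, 32.3, 36.0 and 30.7 in BCAS 1 to 4. Because the rule used the same peaks, these values describe the members and no test was made of them.

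**Figure D2:**
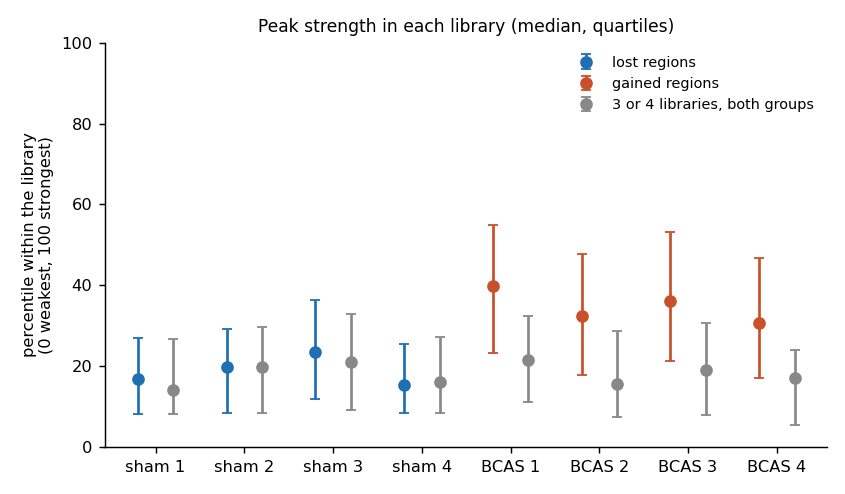
Percentile of peaks within their own library (0 weakest, 100 strongest) in each of the 8 libraries, as medians with quartile bars. Lost regions (blue) lie at medians of 15.4 to 23.6 in the sham libraries, beside the grey regions with a peak in 3 or 4 libraries of both groups, and the gained regions (orange) at 30.7 to 39.9 in the BCAS libraries.

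Whether the loss recurs in a library that the choice did not use was read by leaving out 1 sham and 1 BCAS library at a time. Regions with a peak in the 3 other sham libraries and in none of the 3 other BCAS libraries were chosen, and the left-out pair was then examined. Over the 16 pairs, between 282 and 2465 regions were chosen. The left-out sham library had a peak in 54.6% ± 21.5 of them (SD over 4 libraries) and the left-out BCAS library in 37.9% ± 27.6, which is a smaller difference than the spread between libraries of either group. By library the means were 39.2%, 62.9%, 81.1% and 35.2% in sham 1 to 4, against 77.9%, 34.5%, 17.1% and 22.2% in BCAS 1 to 4. The 2 ranges overlapped, since BCAS 1 lay above sham 1, sham 2 and sham 4.

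In the 12 pairs that left out BCAS 2, 3 or 4, the sham library had the higher share each time, with means of 51.6% and 24.6%. In the 4 pairs that left out BCAS 1 it did so in 1, when sham 3 was the sham library. BCAS 1 thus had a peak in regions absent from BCAS 2 to 4 about as often as sham 3 did and more often than the other sham libraries. The mirror rule gave a wider difference, with 80.3% of chosen regions found in the left-out BCAS library and 15.7% in the left-out sham library. BCAS 1 stood with its own group there, with a peak in 95.1% of the regions chosen on BCAS 2 to 4. The 16 pairs share libraries, so no p-value is given.

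**Figure D3:**
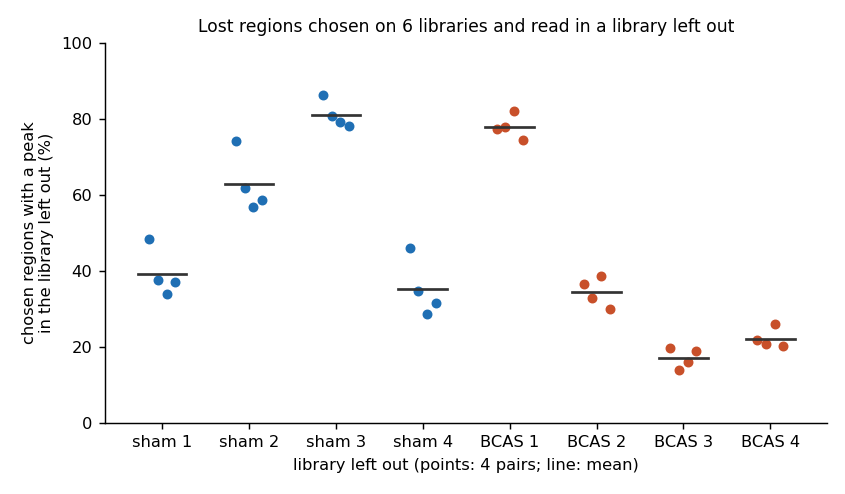
Percentage of regions, chosen on 3 sham and 3 BCAS libraries as present in all the sham and none of the BCAS libraries, that had a peak in the library left out. Each point is 1 of 4 pairs and each line their mean: sham 3 and BCAS 1 lie highest at 81.1% and 77.9%, and BCAS 3 lowest at 17.1%.

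The strongest members, taken as those with a peak in all 4 sham libraries and ranked by their lowest percentile, were mostly intronic. The first lay in an intron of Fhl2 (chr1:43141811-43142351), which encodes a LIM-domain scaffold protein. Its fold enrichment was 4.14, 3.70, 3.79 and 3.54 and its percentile 50, 43.7, 51.1 and 39.7 in sham 1 to 4. These values differed little among the 4 libraries, and each was near the middle of its list.

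A region 3.49 kb from the nearest start site, assigned to Mettl21a (chr1:64621151-64621391), a methyltransferase of Hsp70 chaperones, had percentiles of 49.4, 53.2, 34.8 and 56.2. In an intron of Sobp (chr10:43104313-43104618) the percentiles were 39.7, 33.7, 52.1 and 33.9. The region assigned to Amer2 (chr14:60427873-60428213), which regulates Wnt signalling, had percentiles of 41.2, 31.4, 59.5 and 35.0. Sham 3 was the highest of the 4 libraries at Sobp and at Amer2 and the lowest at Mettl21a.

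Entpd1 encodes CD39, the ectonucleotidase that removes extracellular ATP and is carried by microglia and endothelial cells. Its intronic region (chr19:40733906-40734159) had fold enrichments of 4.69, 4.41, 5.15 and 4.40. The region next to B4galnt1 (chr10:127160176-127160459), the synthase of complex gangliosides, lay 4.91 kb from the nearest start site and had percentiles of 39.8, 46.4, 59.0 and 27.6. Both were highest in sham 3, where the percentile at Entpd1 was 48.9, against 28.9 to 33.1 in the other sham libraries.

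The remaining 4 of the 10 were weaker still in their lowest library. They lay in introns of Megf6 (chr4:154234798-154235050), Zbtb16 (chr9:48816245-48816509) and Rab11a (chr9:64720527-64720869), and in an intron of a non-coding gene with no protein-coding start site within 100 kb (chr15:62779443-62779729). Zbtb16 encodes the zinc finger factor PLZF, and Rab11a a GTPase of recycling endosomes. At Zbtb16 the percentiles were 26.4, 38.3, 45.5 and 39.0, and at Rab11a 35.4, 25.9, 50.1 and 36.9. Over all 10 members the lowest percentile ran from 25.9 to 39.7, and 2 of them, those at B4galnt1 and Zbtb16, held an AP-1 match.

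By position the lost regions lay away from promoters. Of 1172, 140 (11.9%, Wilson 95% interval 10.2 to 13.9) were within 3 kb of a transcription start site, against 19.3% of all regions, 18.4% of the gained regions and 13.4% of the regions found in 3 or 4 libraries of both groups. Introns held 623 (53.2%, 50.3 to 56.0) and intergenic sequence 367 (31.3%), with 28 in exons, 9 in 3′ UTRs, 4 just downstream of genes and 1 in a 5′ UTR. Within 1 kb of a start site lay 46 (3.92%, 2.96 to 5.20), which is below the 6.18% of the regions found in 3 or 4 libraries of both groups and the 12.1% of all regions. At 3 kb, by contrast, the interval of the lost regions included the 13.4% of the regions in 3 or 4 libraries. The intervals cover counting error only.

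The median distance to a start site was 19.1 kb, against 12.1 kb in the gained regions and 18.5 kb in the regions of 3 or 4 libraries. The nearest region with a BCAS peak was a median of 2509 bp away (quartiles 1043 and 5930), and 168 lost regions (14.3%) had one within 500 bp. Measured to the BCAS peaks themselves, 1011 lost regions had none within 500 bp. On the chromosomes the share of regions that were lost ran from 0.428% on chromosome 17 to 0.788% on chromosome 9 among the autosomes, and 20 lay on the X (0.459% of its regions).

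The sequence of the lost regions was poorer in G and C than that of the comparison sets, but not than that of regions near the rule. The median GC content within 100 bp of the summit was 46.3% (quartiles 41.8 and 50.7), against 50.2% in the gained regions, 47.3% in the regions of 3 or 4 libraries and 49.3% in all regions. CpG dinucleotides averaged 2.61 per window, against 3.10, 2.85 and 4.05 in the same order. Repeat-masked bases made up 12.5% of the windows, close to the 11.4% and 11.5% of the comparison sets. Just outside the rule the median GC content was 45.8% in regions with 2 sham and no BCAS libraries. With 1 BCAS library it was 46.3% for 3 sham libraries and 45.8% for 4, so the low GC content was not particular to the lost regions. The GC content of all peaks in a library also moved with the groups, with medians of 49.3% to 49.8% in the sham libraries and 49.8% to 50.7% in the BCAS libraries. Its part in the lost regions was not tested.

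AP-1 was the motif with the highest share in the lost regions. The letters TGACTCA, read on both strands within 100 bp of the summit, were found in 206 of 1172 (17.6%, 15.5 to 19.9). They were found in 11.3% of all regions, 11.4% (11.0 to 11.8) of the regions in 3 or 4 libraries of both groups and 8.71% of the gained regions, so the interval of the lost regions lay above each of these. No test was run, since regions are not replicates. The intervals here and for the other motifs cover counting error only and not the spread between libraries. The match lay near the summit more often in the lost regions, at a median of 23 bp with 105 of 206 (51.0%) within 25 bp, against a median of 34 bp and 39.1% in the regions of 3 or 4 libraries. Within 50 bp of the summit the shares were 13.2% in the lost regions and 7.46% in that set.

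The AP-1 share held across the sham libraries that made up the set. It was 18.2% (13.3 to 24.3) in the 187 members with all 4 sham libraries and 17.5% in the 985 with 3. Among members without a peak in 1 of the libraries it was 20.8% without sham 1, 16.6% without sham 2, 18% without sham 3 and 15.1% without sham 4, with overlapping intervals. Regions near the rule had a like share. The 3076 regions kept out of the set by a peak in BCAS 1 held the letters in 17.4% (16.1 to 18.7), and the 1070 kept out by BCAS 2, 3 or 4 in 15% (13 to 17.3). Of the members with AP-1 letters, 24 of 206 (11.7%) lay at promoters and 74 (35.9%) between genes, against 116 (12%) and 293 (30.3%) of the 966 without. The median GC content was 46.0% and 46.3%.

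Across all regions the AP-1 share moved with the balance between the groups. Among regions with a peak in 3 libraries in all, it was 17.5% with 3 sham libraries, 12.8% with 2 sham and 1 BCAS, 9.75% with 1 sham and 2 BCAS, and 8.09% with 3 BCAS libraries. Among regions with 4 libraries it was 18.2%, 15.4%, 10.9%, 8.55% and 9.36% from 4 sham to 4 BCAS. The lost regions thus stood at the high end of a graded series. The share was also 20.3% in the 1169 regions with 4 sham libraries and 1 BCAS library, which the rule left out. GC content moved along the same axis, from a median of 46.3% with 3 sham libraries alone to 50.2% with 3 BCAS libraries alone, and its part in the AP-1 share was not tested.

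**Figure D4:**
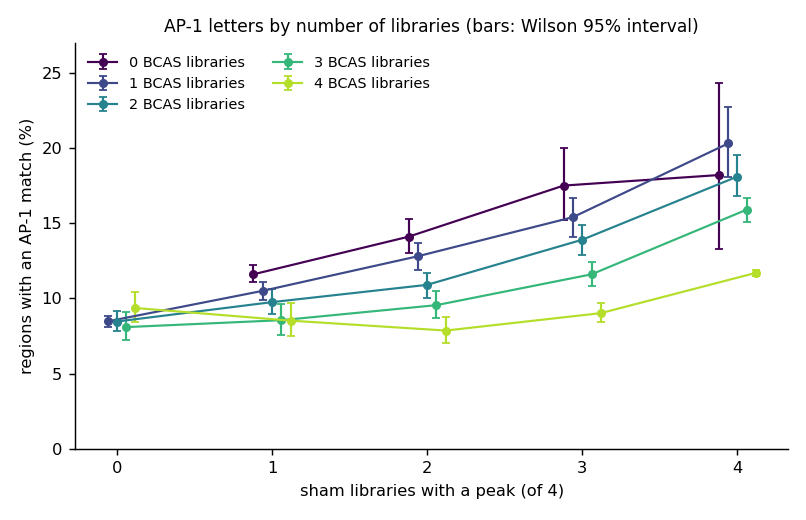
Percentage of regions with the AP-1 letters within 100 bp of the summit, by number of sham libraries with a peak (horizontal axis) and number of BCAS libraries (line colour), with Wilson 95% intervals. The 2 rightmost points of the line for 0 BCAS libraries are the lost regions at 17.5% and 18.2%, and regions with a peak in 0 sham libraries lie at 8.09% to 9.36%.

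The AP-1 matches of 7 named members, read on the strand that gives TGACTCA with 15 bases on each side, show how the flanks vary around the constant letters in capitals (mm10, with the strand read). Those of Gm20388 and Dcc are not shown.
B4galnt1, chr10:127160261-127160297, plus: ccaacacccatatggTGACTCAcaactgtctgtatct
Zbtb16, chr9:48816321-48816357, plus: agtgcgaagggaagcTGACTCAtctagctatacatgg
Sema3e, chr5:14237707-14237743, plus: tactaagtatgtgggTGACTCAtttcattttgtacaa
Adcy2, chr13:68794214-68794250, minus: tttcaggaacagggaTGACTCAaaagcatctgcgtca
Anks1b, chr10:90448714-90448750, minus: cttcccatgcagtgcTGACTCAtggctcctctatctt
Schip1, chr3:68385809-68385845, minus: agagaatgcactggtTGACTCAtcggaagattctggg
Syndig1, chr2:149987271-149987307, plus: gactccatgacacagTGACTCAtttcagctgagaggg

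No other motif searched had an interval above the share of the regions in 3 or 4 libraries. CAGATGG, the letters of NEUROD1, were found in 96 lost regions (8.19%, 6.75 to 9.90), against 9.95% of the regions in 3 or 4 libraries and 5.59% of the gained regions. The interval lay just below the first of these shares. CTTGGCA, one arm of the palindromic NFI site, stood at 7.85% against 7.40%, and TAATTA, the core of many homeobox factors, at 4.86% against 5.52%, both within counting error of the regions in 3 or 4 libraries. GAGGAAGT, the letters of PU.1, were found in 18 lost regions (1.54%, 0.974 to 2.41), against 2.03% of the regions in 3 or 4 libraries and 12.7% of the gained regions.

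Some other motifs were rarer in the lost regions than in the regions of 3 or 4 libraries. TAGGTCA, the letters of the ROR receptors, were found in 5 (0.427%, 0.182 to 0.995) against 1.48% in the regions of 3 or 4 libraries. CCAGGGGGC, letters of the insulator factor CTCF, were found in none of 1172, so that a share as high as 0.256% could have been missed, against 0.489% of that set. ACAATGG, for SOX factors, stood at 1.96% (1.31 to 2.93), and TGTTTAC, for FOX factors, at 1.62% (1.04 to 2.52). These intervals lay just below the 3% and 2.56% of the regions in 3 or 4 libraries. GGGGCGGGG, for SP1 at CpG-rich promoters, stood at 0.512% (0.235 to 1.11), and CCGGAAGT, for ETS factors at promoters, at 0.171% (0.0468 to 0.620). Both were below the 2.20% and 0.677% of all regions, but their intervals included the 0.882% and 0.206% of the regions in 3 or 4 libraries. These exact letters miss variant sites, and a window without them says nothing of the factor.

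**Figure D5:**
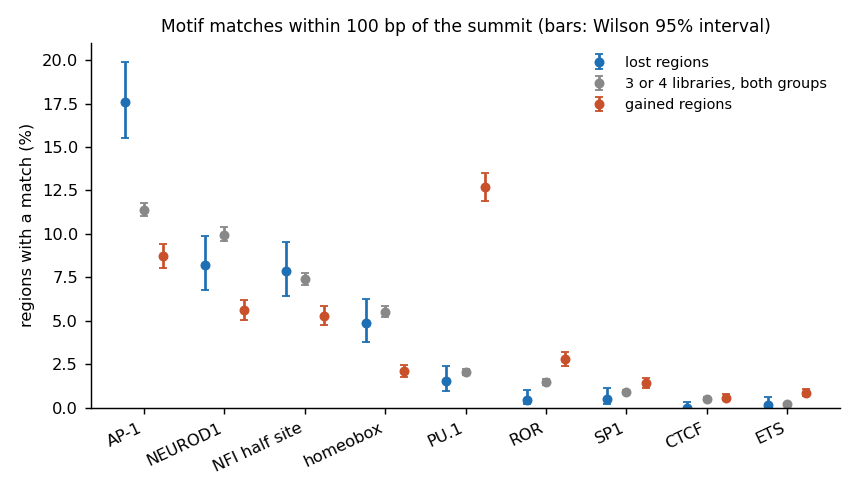
Percentage of regions with each motif within 100 bp of the summit, for the lost regions (blue), the regions with a peak in 3 or 4 libraries of both groups (grey) and the gained regions (orange), with Wilson 95% intervals. AP-1 stands at 17.6% in the lost regions and 8.71% in the gained regions, and PU.1 at 1.54% and 12.7%.

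The lost regions were spread thinly over many genes. A region was given to the protein-coding gene that hosts it (712, 60.8%), or else to the nearest start site within 100 kb (229, 19.5%), and 231 (19.7%) were given to none. The assigned regions fell to 859 genes, of which 790 had 1 lost region, 60 had 2 and 9 had 3 or more. Of the 642 genes that host a lost region, 578 (90%) had a region open in all 8 libraries within 1 kb of a start site, against 77.1% of the 16914 genes that host any region. Most host genes thus kept an open region within 1 kb of a start site in the BCAS libraries while another of their regions had no peak there. The same share was not computed for genes that host gained regions or regions of 3 or 4 libraries.

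The genes with 3 or more are given with the number of all regions they held, of which 0.592% were lost over the whole genome. They were picked by their count, so a share above this is no finding. Adcy2, an adenylyl cyclase, held 4 lost of 50 regions over its 379 kb, with none gained. Dlg2, which encodes the postsynaptic scaffold PSD-93, held 4 of 143, and Anks1b, encoding a postsynaptic protein, 3 of 144. Opcml, an adhesion molecule of the IgLON family, held 3 of 138, and Dcc, the netrin receptor, 3 of 62.

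Schip1, a gene of the axon initial segment, held 3 lost of 85 regions. Syndig1, which encodes a partner of AMPA receptors, held 3 of 35, of which 2 were in all 4 sham libraries. Susd4, a complement regulator expressed in brain, held 3 of 23 regions over 133 kb. Gm20388 held 5 of 303, but this model spans 4435 kb and many other genes, so its count belongs to a stretch of chromosome 8 and not to a gene. The 5 genes with most members could not be separated at a tie of 3, so all 9 are given.

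At Adcy2 the lost regions differed in strength. The strongest (chr13:68757262-68757542) had percentiles of 44.7, 40.9 and 50.1 in sham 1 to 3 and no peak in sham 4. One within 3 kb of a start site (chr13:69002239-69002509) had 33.1, 35.5 and 33.9 in sham 2 to 4 and no peak in sham 1. The one found in all 4 (chr13:68816609-68816944) was weak, at 17.9, 11.5, 7.27 and 2.20. Sham 2 and sham 3 thus held both of the stronger ones.

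Among the gene lists, the neuronal ones held lost regions at about the share of all regions. Of the 2054 regions of 34 synaptic adhesion genes, 14 were lost (0.682%, against 0.592% of all regions), and Adgrl3, Dlg2, Dlgap1, Nrxn3, Ptprd, Tenm2, Tenm3 and Tenm4 were among the genes that held them. Of the 1333 regions of 35 axon guidance genes, 10 were lost (0.750%), and of the 1070 of 35 glutamate and GABA receptor genes, 5 (0.467%) with Gabrb2, Gria1 and Grm7 among the genes. These genes are long, and by nearest start site alone the counts were 7, 1 and 2.

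The stronger members of these lists were intronic. In Tenm3, a teneurin adhesion molecule, the region (chr8:48474573-48474863) had percentiles of 17.5, 16.1 and 20.9 in sham 1 to 3. In Sema3e, a secreted guidance cue, the region (chr5:14237550-14237884) had 18.6, 35.2 and 36.9 in sham 1, 2 and 4, and in Epha5, an ephrin receptor, the region (chr5:84263989-84264375) had 11.9, 38.3 and 31.5 in the same libraries. In Gabrb2, a subunit of the GABA-A receptor, the region (chr11:42441889-42442235) had 33.1, 42.4 and 8.42 in sham 1, 3 and 4. Sham 3 was the high library at Gabrb2 and was without a peak at Sema3e and Epha5.

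Markers of single cell types held 0 to 2 lost regions a list, counts too small to set apart from the 0.592% of all regions. The 18 excitatory neuron genes held 2 of 379 regions (0.528%), in Mef2c and Rasgrf2, and the 15 inhibitory neuron genes 2 of 206 (0.971%), in Reln and Adarb2. All of these were intronic. At Mef2c, a transcription factor of neurons, the region had fold enrichments of 3.99, 3.91 and 4.05 in sham 1, 2 and 4. Its percentiles there were 6.40, 8.42 and 7.35, near the weak end of each list. At Reln, which encodes the secreted protein reelin, the percentiles were 28.7, 14.7 and 4.36 in sham 1, 3 and 4. The 14 astrocyte genes held 1 of 221 (0.452%), in Aldh1l1, and the 12 mural cell and fibroblast genes 1 of 87 (1.15%), near Lum. The lowest percentile was 11.8 at Aldh1l1 and 27.1 at Lum. Microglial genes held none of 203 regions, so that a share as high as 1.48% could have been missed. The lists of oligodendrocytes, oligodendrocyte precursors and hypoxia genes held none of 163, 143 and 159 regions, with limits of 1.84%, 2.10% and 1.89%. Of the microglial regions, 19 (9.36%) met the mirror rule, against 3.28% of all regions. That share was also exceeded in endothelial genes (7.33%) and in mural cell and fibroblast genes (5.75%). By less, it was exceeded in hypoxia genes (7 of 159, 4.40%) and activity-regulated genes (4.10%). In the lists of excitatory and inhibitory neurons, astrocytes, oligodendrocytes and their precursors, 0.699% to 2.91% met it.

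A pair of marker genes had a lost region at a promoter. At Ets1, a transcription factor of endothelial and immune cells, the region (chr9:32711054-32711358) lay 0.0350 kb from a start site, with fold enrichments of 5.18, 6.96 and 5.90 in sham 2 to 4 and no peak in sham 1. It was the 1 lost region among 191 of the 14 endothelial genes (0.524%). At Egr2, an activity-regulated zinc finger factor, the region (chr10:67538923-67539230) lay 0.394 kb from a start site, with fold enrichments of 2.76, 3.89 and 3.23 in sham 2 to 4. It was the 1 lost region among 244 of the 22 activity-regulated genes (0.410%), of which 10 (4.10%) met the mirror rule. These shares are near the 0.592% and 3.28% of all regions. Both regions were without a peak in sham 1 as well as in the BCAS libraries. All 22 activity-regulated genes, Egr2 among them, had a peak within 1 kb of a start site in every BCAS library. The Egr2 promoter thus kept another peak there. For Ets1 this cannot be read from the counts, since 9 to 12 of the 14 endothelial genes had such a peak.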

How the data were processed

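The authors made 1 peak list per ATAC-seq library from reads trimmed with Trim Galore, aligned to mm10 with Bowtie2 2.3.4.3 and handled with SAMtools 1.9, and called peaks with MACS2. MACS2 options were not given in the sources used here, and replicates were not pooled. The deposited columns used here are the fold enrichment (a ratio over local background) and the −log10 q of each peak, with its position and summit. The deposited score and −log10 p-value columns were not used. The lists hold no reads, so the depth behind a peak is unknown and strength was compared mainly as percentiles within a library. Fold enrichments are given beside them for some members, and a common −log10 q threshold was used in some alternatives. Both can depend on depth. The 4 sham and 4 BCAS libraries are taken as separate mice, as the labels number them.

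From the lists, 1028949 peaks on 21 chromosomes were merged (861 lay elsewhere). Regions were annotated by their midpoint with GENCODE vM21 (promoter within 3 kb of a start site) and read in GRCm38, whose chromosome lengths match mm10. Motifs were searched as 23 exact strings and genes in 13 lists. No test was made on the contrast that chose the members, since the rule used every library. Shares carry Wilson 95% intervals. The steps were tested on simulated peak lists with planted regions and motifs. Analyses ran in Python 3.11.15 with scipy 1.17.1, pandas 2.3.3 and numpy 2.4.6. The members, lists and motifs were chosen with earlier results of these data known. Members were named by rule: the 10 in all 4 sham libraries with the highest lowest percentile (chromosome 18, with 40 members, left out), up to 2 per gene list, and the genes with most members. Alternatives varied the threshold on −log10 q, list length, libraries required, distance, windows, gene assignment and the libraries left out. A few members of the gene lists are not reported here.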

Additional observations from a re-analysis of the deposited data

Results flagged for a closer look

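Dixon's ratio was computed in 29 groups of 4 libraries, for peak counts, counts of lost and gained regions, median percentiles, held-out shares and the values of the 10 strongest members. Chance alone would put about 1 in 20 such groups past the critical value. One was past it. Of the regions with a peak in 3 or 4 sham libraries and in 1 BCAS library, BCAS 1 accounted for 3076, against 512, 269 and 289 in BCAS 2 to 4 (ratio 0.913). BCAS 1 also had the longest peak list, 160720 peaks, and a library number next to those of the sham libraries. The part of either in this count was not tested.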

How the results depend on the processing

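No paired analysis was possible because the results come from no test, and replicate numbers of the groups mark no shared animal. The count of lost regions depended on the rule. Against 1172, it was 441 with a −log10 q of at least 5 asked of the sham peaks alone, 2508 with lists of equal length, 187 with all 4 sham libraries and 4866 with 2. It ran from 238 to 4257 when 1 library was left out, lowest without sham 3 (all 3 others required) and highest without BCAS 1. With a −log10 q of at least 5 in all lists it was 1185. The gained regions, 6495 by the rule, numbered 3206 with all 4 BCAS libraries, 12926 with 2, and 3385 to 8955 when 1 library was left out. Without BCAS 1 the lost regions (3 of 4 sham libraries) numbered 4257 and the gained (all 3 BCAS libraries) 3385, which are not matched rules. The AP-1 share was 13.2% within 50 bp of the summit and 15.8% to 20.3% when 1 library was left out. The promoter share was 3.92% within 1 kb of a start site and 10.1% to 13% when 1 library was left out. The leave-one-out shares, the AP-1 share under list length and threshold, and the held-out pairs without BCAS 1 were added after seeing the data. The other 52 recomputed summaries stayed within counting error, the spread between libraries, 1.5 times the count or, for GC content, the SD over regions. That last band and the spread between libraries, used for the held-out shares, were too wide to show a small shift. The left-out BCAS share, 37.9%, was 24.6% without BCAS 1 as the library left out and still counted as unmoved. The median GC content was 45.8% to 46.8% when 1 library was left out and 44.9% over the whole region. Among values of single motifs and gene lists, 18 stayed and 15 moved, the latter mostly lower shares in the narrower window or in the 187 regions of all 4 sham libraries.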
